A study of Rattus norvegicus with 14 samples.

Results

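The windows described here are the autosomal 1 kb windows in which at least 1 of 6 HCR samples and at least 1 of 8 LCR samples lacked a methylation value. They number 27547 of the 188511 windows on chromosomes 1 to 20, and of the 194367 windows of the whole table. An analysis restricted to windows with a value in every sample leaves all of them out. They were chosen by which values are missing, so how many values each sample lacks is a description and not a result, and the levels of the values present were not used in the choice. For comparison, 131799 autosomal windows had a value in every sample (complete windows), and 29165 lacked values in one line only.

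Old female rats, aged 23 to 24 months, gave the left soleus, a slow-twitch muscle of the calf that works in standing, and its DNA methylation was read by RRBS (reduced representation bisulfite sequencing). HCR (high-running capacity, 6 samples) and LCR (low-running capacity, 8 samples) are lines bred selectively for treadmill running to generation 44 from genetically heterogeneous N:NIH stock. Both were kept on standard chow, all samples were taken at baseline, and no treatment is given in the labels. Line is therefore the only contrast, and each side of it is 1 selected population, so selection for running and any other genetic difference between the lines cannot be told apart. The labels do not say that each sample came from a different rat, so the spread between samples may be partly technical. Whole muscle mixes fibres, vessels, nerve and connective tissue, and a different share of cells and a different level within cells cannot be told apart. The tissue label could not be checked, because methylation windows carry no expression markers.

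Methylation of mammalian DNA lies mostly on CpG sites and is copied at each cell division by maintenance methyltransferases. CpG-rich islands at promoters are usually unmethylated, whereas scattered CpGs in gene bodies, repeats and intergenic DNA are usually methylated, so a low level tends to mark CpG-dense regulatory sequence. RRBS cuts DNA with MspI at CCGG and reads the short fragments, which favours CpG islands. The deposited values are percentages without read counts, so the depth behind each value is unknown, and every error given below is a spread between samples. Genes and sequence at these positions were not analysed here.

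Every sample contributed to the missing values, in very unequal measure. The share of the 27547 windows without a value was 31.2, 12.5, 39.6, 16.5, 24.2 and 24.7% in HCR replicates 1 to 6. In the LCR samples it ranged from 6.94% in replicate 4 to 55.2% in replicate 7. The mean share was 24.8% ± 9.81 over the 6 HCR samples and 24.8% ± 16.9 over the 8 LCR samples (SD). A window lacked 1 or 2 HCR values and 1 to 4 LCR values, because each window of the table holds at least 4 values of each line. There were 7081 windows (25.7%) with 1 missing value in each line and 1963 (7.13%) with 2 in HCR and 4 in LCR, which left 8 values. The missing values formed 2404 different sets of samples. The commonest set, HCR replicate 3 with LCR replicate 7, accounted for 1181 windows (4.29%).

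Windows with missing values in both lines were far more methylated than complete windows. Per sample, their mean level over the values present was 49.9, 52.3, 46.3, 52.9, 51.9 and 50.1% in HCR replicates 1 to 6. In LCR it had a lowest value of 46.7% (replicate 7) and a highest of 52.1% (replicate 1). In the complete windows of the same libraries all 14 samples lay lower, between 32.96 and 36.7%. The mean over samples was 49.9% in windows with missing values in both lines and 34.96% in complete windows, a gap of 14.97 percentage points ± 1.06 (SD, n = 14). The gap was positive in 14 of 14 samples and ranged from 12.5 to 16.2 points (exact sign-flip permutation test over samples, two-sided, p = 0.000122, the smallest it can give). All libraries draw on the same sets of windows, so this p measures agreement between libraries and not the spread between windows. The sign-flip tests below have the same limit.

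**Figure D1:**
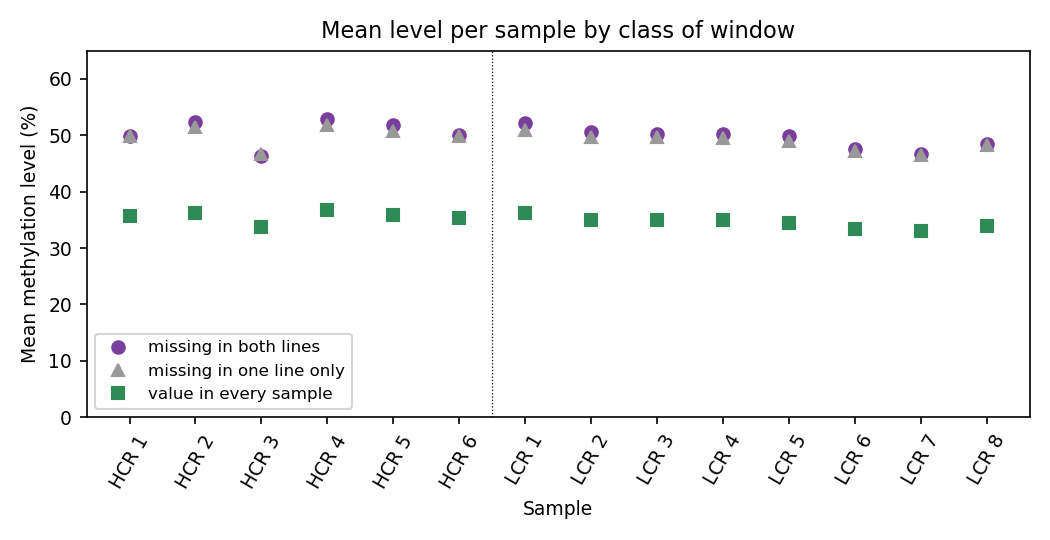
Mean methylation level (%) of each sample, HCR left and LCR right of the dotted line, in windows missing in both lines (circles), missing in one line only (triangles) and with a value in every sample (squares). The circles lie between 46.3 and 52.9% and the squares between 32.96 and 36.7%, with no overlap in any sample.

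The gap came with a near absence of unmethylated windows. Only 5.03% of the windows missing in both lines had a mean level under 10%, against 27.2% of complete windows, and the shares under 5% were 2.32% and 21.1%. At the other end 19.1% stood at 70% or more, against 10.5%. The largest class was 50 to 70%, with 9834 windows or 35.7%, against 24.0% of complete windows. The median level was 53.2% (quartiles 35.9 and 66.7%), against 35.05% (8.04 and 58.4%) in complete windows. The CpG content of these windows was not analysed here.

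**Figure D2:**
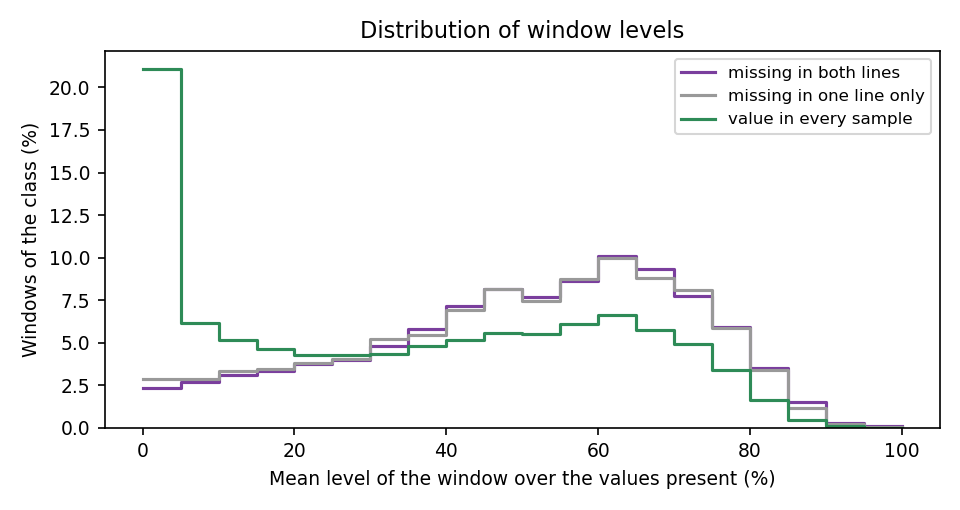
Share of the windows of each class (%, vertical axis) by mean level over the values present (%, horizontal axis, steps of 5 points). Complete windows have 21.1% of their number under 5%, windows missing in both lines 2.32%, and the 2 incomplete classes nearly coincide.

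Windows with missing values in a single line had nearly the same level. Windows with missing values in one line only averaged 49.4%, and the windows with missing values in both lines stood 0.557 points ± 0.444 (SD, n = 14) above them. That step was positive in 13 of 14 samples (exact sign-flip permutation test, two-sided, p = 0.0011). At the limit of the rule, windows with exactly 1 missing value in each line averaged 50.3% in HCR and 49.4% in LCR. Just outside it, windows with 1 missing value in HCR alone averaged 49.8% in HCR and 48.7% in LCR, and those with 1 in LCR alone averaged 50.2% in HCR and 49.1% in LCR. Beyond that the level hardly moved with the number of missing values: the mean was 49.95, 50.1, 49.8, 51.4 and 50.6% for windows with 2, 3, 4, 5 and 6 values missing.

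A sample's missing windows were not of one kind. In HCR replicate 3 the windows without a value had a mean level of 54.4% in the other samples, against 47.6% for the windows with a value. HCR replicate 4 showed the opposite, 44.4% against 51.2%, as did LCR replicate 1, with 42.3% against 50.7%. Over all samples the windows without a value had the higher level in 6 and the lower in 8. As a description, each of those 6 samples lacked 24.7% or more of the windows. Of the 8, only LCR replicate 2 lacked more than 24.2%, with 33.4%, and its levels were 49.8% and 50.5%. Mean levels taken over each sample's own windows therefore depend on which windows the sample has.

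Windows with missing values in both lines were somewhat isolated. An adjacent measured window lay beside 36.2% of them, against 50.5% of complete windows. The median distance to the nearest measured window was 3 kb against 1 kb. Windows missing in one line only were nearly the same in this, with 37.03% and 3 kb. The autosomal windows were divided into 4 groups of near equal size by the number of measured windows in their megabase. The share was 16.3% in the emptiest group (1 to 66 windows per Mb), then 15.2%, 14.5% and 12.5%, the last in the fullest group (164 to 423 windows per Mb). Across chromosomes the share ran from 13.1% on chromosome 10 to 16.1% on chromosome 15. Most stood alone: 24913 had no neighbour of the same kind, 2496 formed 1248 runs of 2, and 3 runs reached 4 windows. A window missing in both lines lay beside 9.56% of them and beside 4.95% of complete windows. Complete windows had another complete window beside them in 42.7% of cases. The share within 2 Mb of the first or last measured window of a chromosome was 2.79%, against 2.96%.

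The gap in level was present at every placing along the chromosome that was compared. In the emptiest group the levels were 53.04% ± 1.59 and 41.8% ± 0.921 in complete windows (SD, n = 14 each), a gap of 11.2 points. In the fullest group they were 48.3% ± 2.19 and 32.04% ± 1.19, a gap of 16.2 points. Among windows with no adjacent window the gap was 8.48 points ± 0.747, with 50.6% against 42.1%, and among windows with one it was 20.8 points ± 1.47, with 48.8% against 27.98%. Between these last 2 groups the complete windows moved more than the windows missing in both lines. In each of these 6 comparisons all 14 samples showed a positive gap (exact sign-flip permutation p = 0.000122 in each).

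**Figure D3:**
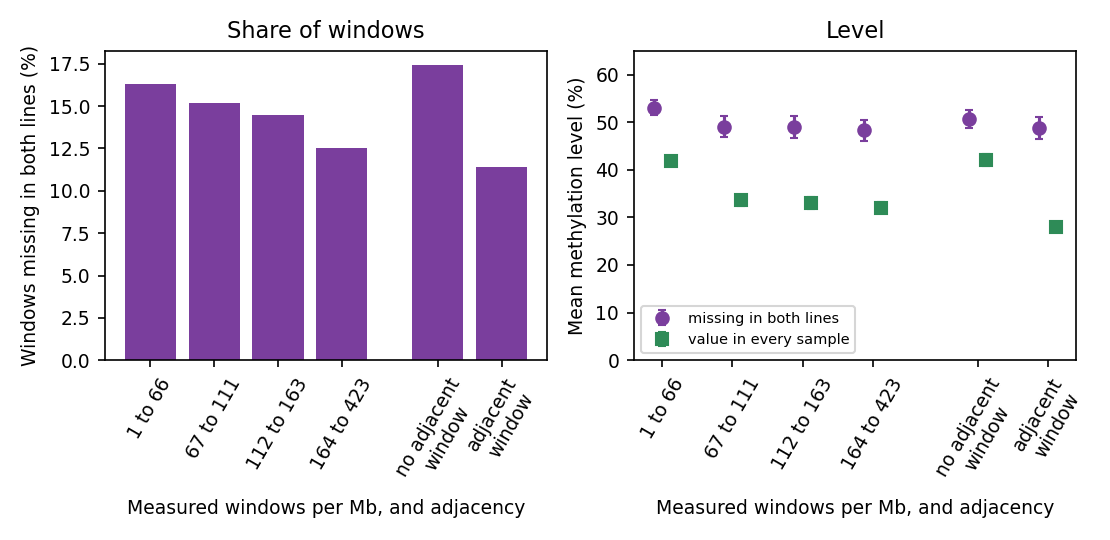
Left, windows missing in both lines as a share (%) of all autosomal windows, by group of measured windows per Mb and by presence of an adjacent window. Right, mean level (%) of windows missing in both lines (circles) and complete windows (squares), with bars for the SD over 14 samples; the share is 16.3% in the emptiest and 12.5% in the fullest group, and the circles lie above the squares in every group.

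A direct comparison with the next kilobase gave a smaller gap. In 6637 pairs of a window missing in both lines and an adjacent complete window the levels were 46.4% and 40.2%, counted in the same libraries. The difference was 6.18 points ± 0.37 (SD, n = 14), positive in 14 of 14 samples (exact sign-flip permutation p = 0.000122), and it averaged 6.25 in HCR and 6.12 in LCR. Levels of the 2 windows of a pair were correlated across pairs with r = 0.444, against 0.713 for 32452 pairs of adjacent complete windows. Pairs share libraries and lie in clusters, so these values are descriptions.

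Samples of one line differed from each other much more in these windows than in complete ones. The mean absolute difference between 2 HCR samples was 10.9 points over 15 pairs (range of pairs 9.98 to 11.8), against 5.91 (5.38 to 6.64) in complete windows. Between 2 LCR samples it was 10.5 points over 28 pairs (8.91 to 12.3), against 5.51 (4.64 to 6.59). In neither line did the ranges overlap. The same order held within classes of level. Within windows of 50 to 70% the HCR pairs differed by 11.4 points against 7.18, and within windows under 10% by 5.13 against 1.73. Windows missing in one line only were in between, at 9.67 points in HCR and 9.23 in LCR. Pairs share samples, so no test was made.

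**Figure D4:**
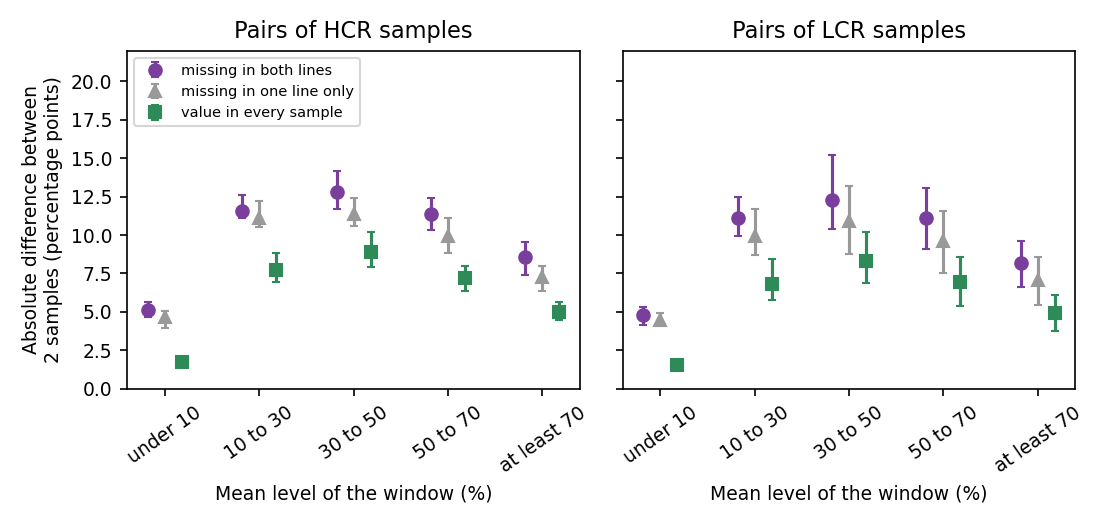
Mean absolute difference (percentage points) between 2 samples of the same line, HCR left and LCR right, by mean level of the window. Points are means over 15 HCR or 28 LCR pairs and bars span the lowest to highest pair; in every level class windows missing in both lines have the largest mean, for example 12.8 against 8.91 points in complete windows at 30 to 50% in HCR.

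Extreme single values were also more frequent. Of 290023 values, 2.05% were exactly 0 and 0.511% exactly 100, against 1.18% and 0.0327% of the values in complete windows. Windows missing in one line only were in between, with 1.81% and 0.238%. The range from lowest to highest sample reached 50 points or more in 9.51% of the windows, against 1.79%, although fewer values were present in each. Among windows missing in one line only, 7.54% had such a range. The residual spread on the log2 logit scale, on which the lines were tested, had a median of 0.63 against 0.40. Its median was 0.567 in windows missing in one line only. Among windows missing in both lines it was 0.60 with 2 values missing and 0.67 with 6.

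The lines differed in mean level in these windows by about as much as in complete windows, and not beyond the spread between samples. The mean was 50.6% ± 2.41 for HCR (SD over 6 samples) and 49.5% ± 1.76 for LCR (SD over 8), and the difference of 1.13 points had an SE of 1.17 (two-sided exact permutation test with 3003 splits, p = 0.328). The groups overlapped widely, with HCR replicate 3 at 46.3% below all LCR samples and HCR replicates 2 and 4 above all of them. Taken window by window, which keeps each window's own level out of the comparison, the mean difference was 1.04 points (exact permutation p = 0.0886), against 1.13 points in complete windows (exact permutation p = 0.0666). Without HCR replicate 3 it was 1.34 points (exact permutation p = 0.0319), without LCR replicate 1 it was 1.36 (p = 0.021 in the same exact test), and after quantile normalization it was -0.0746 (exact permutation p = 0.781). The gap between windows missing in both lines and complete windows was 14.97 points ± 1.47 in HCR and 14.97 ± 0.739 in LCR (SD, n = 6 and 8), and their difference of -0.000746 points had an SE of 0.653 (exact permutation p = 0.999).

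Of the 5 level classes, 0 passed 0.05 after adjustment in windows missing in both lines. The nearest was the class at 70% or more, with 77.6% ± 0.353 for HCR and 76.9% ± 0.498 for LCR (SDs over 6 and 8 samples). The difference of 0.75 points had an exact permutation p of 0.011 and an adjusted p of 0.0549 over 5 classes. Under 10% the levels were 5.54% ± 0.47 in HCR and 4.95% ± 0.462 in LCR (exact permutation p = 0.0383, adjusted p = 0.0957). In complete windows the differences were 0.711 points at 70% or more and 0.362 points under 10%, and both passed (exact permutation, adjusted p = 0.00666 each). In windows missing in one line only the class at 70% or more passed as well, with 0.699 points (exact permutation, adjusted p = 0.0117). Unadjusted, 2 of these 5 classes had an exact p under 0.05.

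In single windows the line means lay further apart here, in either direction, but fewer windows were called. A difference of 10 points or more between line means was present in 14.4% of the windows, against 3.94% of complete windows, and one of 25 points or more in 0.661% against 0.144%. Windows missing in one line only had 10.7% and 0.487%. The median absolute difference was 3.96 points, against 1.75, and 3.35 in windows missing in one line only. With its sign kept, the mean difference was no larger, at 1.04 points against 1.13 in complete windows. HCR was the higher line in 56.8% of the windows, against 64.8%. The values of the 2 lines did not overlap in 438 windows (1.59%), while over all 194367 windows the share was 0.868% and in complete windows 0.712%. These windows also had fewer values in each line, a larger spread between samples and a smaller share of levels under 10% than complete windows. The part of each in the sizes and counts above was not tested.

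By limma across all 194367 windows, with Benjamini-Hochberg adjusted p under 0.05, 52 of the 27547 windows were called (0.189%), 25 higher and 27 lower in HCR. Over all windows tested 0.366% were called, 0.242% higher and 0.125% lower, and the complete autosomal windows had 536 calls (0.407%), 370 higher and 166 lower. At an unadjusted p under 0.05 the share was 8.84%, against 9.94% of all windows. Among the windows of this kind the called share was 0.226% with 2 values missing and 0.0509%, a single window, with 6. With the test fitted only on windows that lack a value the calls were 29. The even split of directions depended on scale: centring each library gave 19 higher and 31 lower, and quantile normalization gave 20 and 33. The same settings gave 251 higher and 231 lower, and 241 and 210, in complete windows. The median log2 logit difference of all windows was 0.08 as tested and -0.02 with libraries centred. Which part of the lower called share goes with the larger spread and which with the fewer values was not tested.

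The 52 called windows lay on 17 of the 20 autosomes. Their median difference was 23.5 points in size (quartiles 16.7 and 31.9), against 17.3 points (12.9 and 23.98) for called complete windows. A difference of at least 10 points was found in 49 of them, 25 higher and 24 lower. That was 0.178% of the windows missing in both lines, and over all windows 0.325% were called at that size. At least 25 points was reached by 22, 11 in each direction. That was 0.0799% of the windows missing in both lines, against 0.0967% of all windows. HCR and LCR values did not overlap in 50 of the 52, against 0.868% of all windows. The 52 had been called for their line difference, so this follows largely from the choice. Chromosome 7 held 8 among its 1550 windows missing in both lines, 7 of them higher in HCR. Chromosome 5 held 6 among its 1900, all lower. These chromosomes are named because they had the most calls, and over all windows 0.366% were called. After centring chromosome 7 had 3 higher and 2 lower, and after quantile normalization 4 and 2, while chromosome 5 had 0 higher and 5 lower in both. Complete windows called on chromosome 7 were 41 higher and 13 lower, with libraries centred 30 and 16. On chromosome 5 they were 23 higher and 15 lower, but 11 and 20 with libraries centred and 13 and 17 after quantile normalization.

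Among the called windows that were higher in HCR, a pair on chromosome 2 was nearly or fully unmethylated in LCR. At 221414001 to 221415000 (rn7, as all positions here) HCR replicates 2, 3, 4 and 5 had 29.3, 36.2, 48.5 and 50%. All 6 LCR samples with a value were listed at 0. The lines did not overlap, and the log2 logit difference was 6.13 (SE 0.25, limma adjusted p = 8.91e-06). With LCR at 0 its size depends on the offset in the transformation, and it was 3.9 with an offset of 0.05. The limma adjusted p was 0.000846 on untransformed levels and 0.0628 with a block for replicate number on 12 samples. A complete window 8 kb away, at 221406001 to 221407000, was also called, with 73.6% ± 8.27 over the 6 HCR and 53.9% ± 3.12 over the 8 LCR samples (SD, limma adjusted p = 0.0207). The second window, 466 kb from the first at 220948001 to 220949000, had 43.02, 23.3, 50, 47.8 and 48.8% in HCR replicates 1, 3, 4, 5 and 6. Its 6 LCR values had a lowest of 0, a median of 1 and a highest of 3.19% (limma adjusted p = 0.00106). HCR replicate 3 was the lowest HCR sample there and still above all LCR samples.

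Chromosome 16 held the largest differences in this direction. The window at 70922001 to 70923000 had 100, 100, 92 and 82.4% in HCR replicates 1, 4, 5 and 6. LCR ranged from 21.2 to 65.7% with a median of 48.8% over 7 samples. The difference was 48.8 points, with limma adjusted p = 0.0291, and the call was lost in 7 of the 14 fits that left out a sample. At 81319001 to 81320000 the HCR values were 68.6, 69.2, 70.8, 73.2 and 72.7% in replicates 1, 2, 3, 4 and 6. The 4 LCR values ranged from 17.9 to 29.8% (median 23.9%). The difference was 46.99 points with SDs of 2.04 and 4.86 (limma adjusted p = 0.000301), and the call was kept in all 14 of those fits.

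On chromosome 7 the window at 30032001 to 30033000 was methylated at 45.4, 55.8, 63.4, 45.3 and 51.7% in HCR replicates 1, 3, 4, 5 and 6. LCR had 2.8 to 12.1% with a median of 7.8% (n = 6, limma adjusted p = 0.00151). A second window there, at 46167001 to 46168000, had 92.9, 86.96, 88.5 and 70% in HCR replicates 2, 3, 5 and 6, against 35.7 to 55.2% in 5 LCR samples (limma adjusted p = 0.0264), and its call was lost in 7 of the 14 fits without one sample. The third, at 29134001 to 29135000, had 83.5% ± 4.59 over 5 HCR samples and 56.6% ± 13.1 over 7 LCR samples (SD, limma adjusted p = 0.0419), and a called complete window 39 kb away went the other way, by -26.7 points. The call of the third was lost in 10 of those 14 fits. The remaining named windows that were higher in HCR lay on chromosomes 18, 2 and 1. They had mean levels of 57.8, 58.4 and 56.8% in HCR and 22.8, 26.2 and 24.9% in LCR, at 55468001 to 55469000, 234688001 to 234689000 and 4673001 to 4674000. The chromosome 2 window of these was the least stable of the named windows and lost its call in 12 of 14 fits that left out a sample (limma adjusted p = 0.0451 with all samples).

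The window with the largest lower level in HCR was on chromosome 5, at 62187001 to 62188000. HCR replicates 2, 3, 5 and 6 had 3.03, 1.96, 18.2 and 5.13%, and the 5 LCR values ran from 53.5 to 68.7% with a median of 55.2%. The difference was -51.7 points (log2 logit difference -4.44, SE 0.54, limma adjusted p = 0.00874). All HCR samples with a value, replicates 3, 4, 5 and 6, were listed at 0 in the chromosome 10 window at 41232001 to 41233000. LCR samples there had 20 to 48.1% with a median of 34.7% (n = 6, limma adjusted p = 9.14e-05). On untransformed levels the limma adjusted p of this window was 0.0142. In the chromosome 16 window spanning 55753001 to 55754000, HCR replicates 2 to 6 had 0, 4.55, 4.88, 2.63 and 0%, against 19.02 to 34.1% in 7 LCR samples (limma adjusted p = 0.00321). In 2 called windows HCR averaged less than 5% with LCR at 20% or more, and in 2 the reverse held.

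In other windows lower in HCR methylation was reduced rather than absent. At 176017001 to 176018000 on chromosome 4, HCR replicates 1, 2, 4 and 5 had 19.7, 21.1, 16.2 and 29.6%, against 54.4 to 70.9% in 7 LCR samples (median 61.5%, limma adjusted p = 0.00106). The chromosome 11 window spanned 81858001 to 81859000, and the values were 38.2, 40, 40, 43.9 and 52.2% in HCR replicates 1, 2, 4, 5 and 6. The 7 LCR samples there had 72.8 to 81.1% (median 79.2%, limma adjusted p = 0.00013). In the second chromosome 10 window, which spanned 73619001 to 73620000, the means were 39.8% ± 6.004 over 5 HCR and 68.04% ± 6.62 over 7 LCR samples (SD, limma adjusted p = 0.0052). The windows at 94444001 to 94445000 and 104265001 to 104266000 on chromosome 5 had 53.4% and 43.1% in HCR, against 79.4% and 69.2% in LCR, and 4 of the 14 fits without one sample did not call the second. The chromosome 18 window (74290001 to 74291000) and the chromosome 6 window (26766001 to 26767000) had 39.8% and 41.1%, against 72.3% and 67.04%. Of those 14 fits, 10 and 7 did not call them. In all 20 named windows, which had been chosen for the largest differences, the lines did not overlap.

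**Figure D5:**
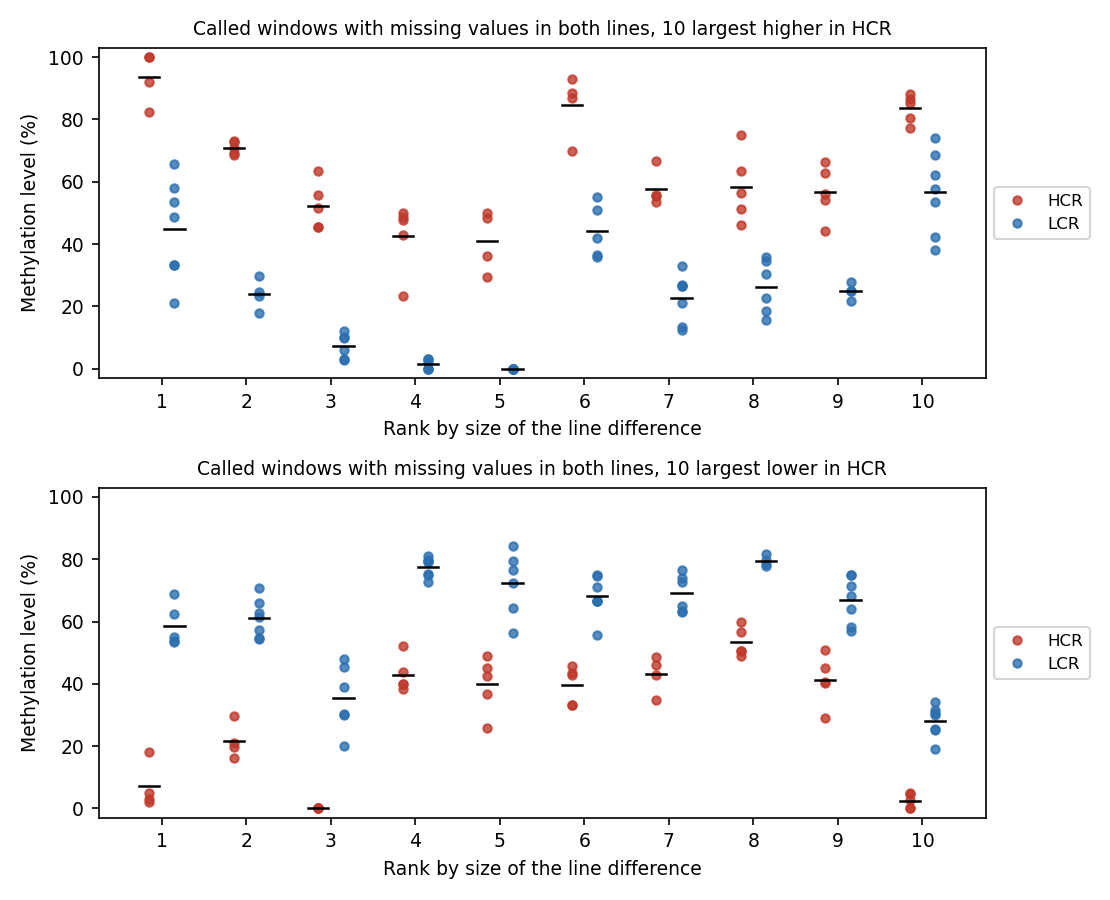
Methylation level (%) of every sample with a value in 20 called windows, the 10 most above LCR on top and the 10 most below it at the bottom, ranked by size of the difference, HCR red and left, LCR blue and right. Short black lines are line means; the lines do not overlap in any of these 20 windows, and LCR is at 0 in the fifth window of the top panel and HCR in the third of the bottom panel.

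Neighbouring windows give a measure that did not enter the choice of these windows or their own test. Over the 6637 pairs with an adjacent complete window, the line difference had the same sign in 52.6%, and r between the 2 differences across pairs was 0.0332. For 32452 pairs of adjacent complete windows these values were 57.97% and 0.171. For windows with an unadjusted p under 0.05 the sign was shared in 57.8% of 614 pairs, and for called windows in 10 of 14 pairs. In those 14 pairs the adjacent complete window differed by 0.0907 to 11.8 points in size (median 1.74), with limma adjusted p of 0.298 or more. The called windows had been chosen for their own difference (median 22.04). The adjacent difference was 11.8 points beside a chromosome 1 window of 23.7 points (177555001 to 177556000) and 11.3 beside a chromosome 4 window of 20.4 points (50639001 to 50640000). It was -4.62 beside the chromosome 11 window of -34.7 points. In 4 pairs the sign was opposite, as on chromosome 18 at 4944001 to 4945000, with -15.03 points and 3.89 beside it. HCR was the higher line in 56.8% of windows missing in both lines and in 64.8% of complete windows. Signs drawn at these shares would often be equal without any link between neighbours, so an equal sign alone does not show agreement.

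Called windows lay nearer to other called windows of any kind than the rest did. The median distance was 542 kb for the 52 called and 1560 kb for the 27495 not called, and 61.5% against 38.1% had a called window within 1 Mb. Among those higher in HCR the nearest called window had the same direction in 20 of 25, and among those lower in 10 of 27. Of all calls 66% were higher in HCR, so these shares are to be read against that one. A called window on chromosome 18, at 57680001 to 57681000 and lower in HCR, had a called complete window 35 kb away that differed by -24.6 points (limma adjusted p = 0.00291).

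The number of windows a sample lacked is tied to the choice of these windows, so its relation to level is given as values only. The level is the mean deviation of a sample from the midpoint of the line means of each window. HCR replicate 3, which lacked 17161 windows of the whole table, had a deviation of -1.24 points, and HCR replicate 2, which lacked 4806, had 1.29 points. In LCR, replicate 7 lacked 23521 windows and had -2.01 points, and replicate 6 also had -2.01 with 12494 missing. LCR replicates 1 and 4 lacked the fewest, 2823 and 2705, and had 1.2 and -0.235 points. HCR replicate 3 was the lowest of its line, whereas LCR samples with few missing windows differed among themselves. Across samples Pearson r was -0.97 in HCR (n = 6) and -0.72 in LCR (n = 8), and Spearman rho was -0.94 and -0.55. Without the 2 samples of each line farthest from the median number, r was -0.94 and -0.66. Adding the number to the fit as a covariate gave 61 called windows, 33 higher and 28 lower in HCR.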

How the data were processed

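The authors' deposited table holds percent methylation per library in windows of 1000 bp, without read counts. Per the submitters' processing notes, reads were handled with FastQC, Trim Galore 0.6.10, Bismark and Bowtie2 on rn7. Per the labels' protocols, 100 ng of DNA was cut with MspI and converted in pools. No source used here gives the coverage minimum, or when a value was set to missing. Columns were matched by library name, and 0 sample columns were left unused.

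Levels were transformed to log2((level + 0.01)/(1 - level + 0.01)) and fitted on the values present with limma 3.58.1 (R 4.3.3), line as the only factor, with a variance trend. P-values are 2-sided, adjusted by Benjamini-Hochberg over 194367 windows and called under 0.05. No value was imputed. The fit was tested on simulated data. Single values used exact permutation tests (Python 3.11.15, numpy 2.4.6, pandas 2.3.3, scipy 1.17.1). Named windows are the 10 called with the largest difference in each direction, and all others named were chosen after their values were seen. The members and tests were chosen with earlier results of these data known. Alternatives were other offsets, scales, samples, rules for missing values, scalings, a covariate and a replicate block.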

Additional observations from a re-analysis of the deposited data

Results flagged for a closer look

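A single sample stood apart from its line in 3 of 46 sets of values, which cover 4 measures per library and the 20 named windows for each line, less 2 sets in which all values were 0. About 1 in 20 sets is expected to do so by chance. In the chromosome 2 window at 220948001 to 220949000, HCR replicate 3 had 23.3% and the other 4 HCR samples 43.02 to 50%. In the chromosome 18 window at 55468001 to 55469000, HCR replicate 2 had 66.7% and the other HCR samples 53.6 to 55.6%, and the call was lost without it (limma adjusted p = 0.0664). In the chromosome 10 window at 73619001 to 73620000, LCR replicate 8 had 55.6% and the other LCR samples 66.7 to 75%. None of the 4 library measures (share of windows missing, mean level, gap to complete windows, deviation from window means) held an outlying sample in either line.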

How the results depend on the processing

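The gap in level to complete windows, 14.97 points, stayed between 14.9 and 15.3 in mean and was 18.2 points as a median. Its exact p stayed under 0.05 in all settings run. The excess spread within lines of 5.01 points ranged from 4.61 to 5.56. Leaving out each sample gave 37 to 47 called windows, against 52. These were partly other windows: 27 of 41 without HCR replicate 2 and 37 of 38 without LCR replicate 2 were among the 52. The count was 29 when fitted only on windows lacking a value, 22 with at least 25 points, 34 without both HCR replicate 3 and LCR replicate 7, 13 with at least 2 missing values in each line and 24 with at least 5 HCR and 6 LCR values present. The replicate block joins HCR and LCR samples of the same replicate number, which the sample titles do not tie to a pair or a batch. With the replicate block on 12 samples the calls were 6, and 35 for these samples without the block, in complete windows 23 and 321. Correlations of same-numbered samples lay between -0.0298 and 0.0349. They were taken on deviations of single windows from line means, so they cannot decide whether these samples shared a batch. The block gave line differences of 0.519 points in mean level and 0.712 window by window. Of 20 named windows 12 kept their call in all 14 fits that left out a sample, and 3 in all 25 alternatives. With the replicate block 17 of the 20 lost their call.

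The mean line difference was -0.125 points after quantile normalization and, window by window, -0.0746; leaving out a sample gave 0.659 to 1.98 and 0.82 to 1.36 points. Window by window it was 1.22 points (exact p = 0.0492) without HCR replicate 3 and LCR replicate 7. The difference between lines in the gap was -0.243 points (without HCR replicate 4) to 0.499 on leaving out a sample, 0.0453 with at least 2 missing values in each line and 0.322 without those 2 samples, never past 0.05. The cause of these shifts was not tested. Depth is unknown and limits every single value. The settings without those 2 samples, the 12 samples without the block and all settings for spread were chosen after seeing the data.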
